A study of Mus musculus with 5 samples.

Results

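Proximal tubule nuclei chosen by their Slc7a13 and Slco1a1 transcripts made up 946 of the 16359 kidney nuclei with at least 200 detected genes, across 5 single-nucleus RNA sequencing libraries. A nucleus belonged to them when it held at least 3 unique molecular identifiers (UMIs, each standing for 1 captured RNA molecule) of the 2 genes summed, so it need not carry both. Of the 946 nuclei, 939 held Slc7a13 and 245 held Slco1a1, and they are called Slc7a13 and Slco1a1 nuclei after the rule. This sum had to be at least as large as that over the early segment genes Slc5a2, Slc5a12, Slc34a3 and Gldc, and larger than that over the late segment genes Cyp7b1, Slc22a19, Slc22a7 and Lpl. Nuclei with a UMI of the injury genes Havcr1 or Vcam1 were left out. The same 4 early genes defined 3319 early segment nuclei and the same 4 late genes 599 late segment nuclei, which served for comparison. The nuclei were thus chosen by the measured UMIs of these 12 genes, so the levels of these genes are given as a description, and every test concerns other genes. Other S1 and S3 genes that vary with the early and late genes are still sorted with them, so their directions partly follow from the rule.

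The proximal tubule reabsorbs most of the filtered sugar, amino acids, phosphate and bicarbonate, and secretes organic anions and drugs. Its early convoluted part (S1) is rich in high-capacity carriers, whereas its late straight part (S3) in the outer medulla holds high-affinity carriers and much of the peroxisomal fatty acid metabolism. Slc7a13 encodes AGT1, an apical carrier of aspartate, glutamate and cystine that pairs with rBAT, the product of Slc3a1. Slco1a1 encodes an organic anion transporting polypeptide of mouse kidney and liver. Both transcripts are known to be more abundant in male than in female mouse kidney, where androgens raise many proximal tubule genes. In mm10, Slc7a13 (ENSMUSG00000041052) lies on the plus strand at chr4:19818725-19842218 and Slco1a1 (ENSMUSG00000041698) on the minus strand at chr6:141907282-141946962.

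The mice were males of the Six2-TGC; Rosa26rtTA; pTRE-H2BeGFP genotype, in which the Six2 promoter drives expression in nephron progenitors, and food with 625 mg of doxycycline per kg switches on a green fluorescent histone (GFP) in the nuclei of their descendants. All groups carried these alleles and were aged 10 to 12 weeks. The groups, with 1 library each, were GFP-positive nuclei without injury, GFP-positive nuclei from kidneys with bilateral ischaemia-reperfusion injury (IRI, both renal pedicles clamped) taken 64 h, 96 h or 28 d later, and GFP-negative nuclei without injury. Serum creatinine was 0.122 mg/dL without injury, and 0.375, 0.312 and 0.144 mg/dL at 64 h, 96 h and 28 d after IRI. The 2 libraries without injury carried the same serum values, so they may share animals, and whether these animals had sham surgery was unclear because the labels name no injury and the design text a sham operation. With 1 library per group, differences between conditions carry 95% intervals for counting error only and no test. Differences between segments were tested within libraries.

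Total UMIs ranged from 1922002 at 96 h to 7153971 without injury in the GFP-positive libraries, and the median per nucleus was 1793.5 without injury and 1290, 507 and 982 at 64 h, 96 h and 28 d, with 3846624 UMIs and a median of 964.5 in the GFP-negative library. Slc7a13 and Slco1a1 nuclei were deeper than their libraries, with medians of 2519, 2234, 980.5 and 1524 UMIs in the same order and 2584.5 in the GFP-negative library. No member barcode was shared between libraries, and pairs of libraries shared at most 20 barcodes in all. Transcripts of the Y chromosome were present in all 5 libraries, with Uty between 157 and 348 counts per 1000000 UMIs (CPM), and Xist was at most 2.15 CPM.

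Lrp2 and Slc34a1, which the rule did not use, were higher in Slc7a13 and Slco1a1 nuclei than in thick ascending limb nuclei. Both are shared by the whole proximal tubule, so they do not place the nuclei in a segment. Lrp2, which encodes the endocytic receptor megalin of the proximal tubule, stood at 1606 CPM in Slc7a13 and Slco1a1 nuclei without injury, at 1376 CPM at 64 h and at 2037 CPM at 28 d. It stood at 474, 196 and 724 CPM in other nuclei with at least 3 UMIs of the thick ascending limb genes Slc12a1 and Umod. These thick ascending limb nuclei numbered 440, 351 and 304, after those that passed the Slc7a13 and Slco1a1 rule were left out. Slc34a1, the sodium phosphate carrier of the proximal tubule, stood at 3803, 2247 and 3799 CPM, against 1610, 471 and 1850 CPM in those thick ascending limb nuclei. RNA of other cells was nevertheless present. Of 66 markers of 10 other cell types, 5 were at 0 UMIs in the 525 nuclei without injury, and 22, 57 and 13 in those at 64 h, 96 h and 28 d, with 27 at 0 in the GFP-negative library. Of the macrophage list, Ptprc was at 0 in these nuclei of all 4 GFP-positive libraries, whereas Csf1r had 24 UMIs without injury and 1, 0 and 11 at 64 h, 96 h and 28 d, and Cx3cr1 67 and 4, 0 and 30. Of the fibroblast and mural list, Rgs5 was at 0 and Pdgfrb had 5, 0, 0 and 2 UMIs in the same order. The thick ascending limb list reached 817, 584 and 661 CPM without injury, at 64 h and at 28 d, about the same as in early segment nuclei with 712, 548 and 713 CPM. Barcodes with at least 2 UMIs of another type's markers numbered 306 of 525 without injury, 58 of 119 at 64 h, 0 of 10 at 96 h, 90 of 244 at 28 d and 29 of 48 in the GFP-negative library. After leaving out 6 markers, Slc8a1 and Cx3cr1 among them, these numbers were 126, 8, 0, 31 and 15. Slc8a1 had 899 UMIs without injury, 7, 0 and 272 at 64 h, 96 h and 28 d, and 3 in the GFP-negative library. No doublet caller was applied, and 31, 7, 2, 14 and 15 of these nuclei held more than 3 times the median UMIs of their library.

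Slco1a1 and 3 genes tested further on are shown with the 250 bases before the transcription start from RefSeq on GRCm38.p6, because Slco1a1 is a gene of the rule and the 3 others tested higher in these nuclei than in early segment nuclei. Capitals mark TATAAA or its reverse TTTATA, the only one of the searched motifs that these windows held. The table had no entry for Slc7a13.
Slco1a1, chr6:141946963-141947212, minus strand: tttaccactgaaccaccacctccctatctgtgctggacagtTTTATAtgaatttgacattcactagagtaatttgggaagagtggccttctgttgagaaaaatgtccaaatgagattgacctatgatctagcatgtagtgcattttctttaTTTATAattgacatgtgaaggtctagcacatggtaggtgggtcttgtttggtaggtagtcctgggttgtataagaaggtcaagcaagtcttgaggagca
Kap, chr6:133853668-133853917, minus strand: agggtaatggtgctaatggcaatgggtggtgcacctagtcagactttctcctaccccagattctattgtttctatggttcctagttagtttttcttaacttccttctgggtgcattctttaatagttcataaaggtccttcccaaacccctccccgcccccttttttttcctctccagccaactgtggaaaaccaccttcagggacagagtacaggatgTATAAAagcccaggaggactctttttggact
Acsm3, chr7:119760673-119760922, plus strand: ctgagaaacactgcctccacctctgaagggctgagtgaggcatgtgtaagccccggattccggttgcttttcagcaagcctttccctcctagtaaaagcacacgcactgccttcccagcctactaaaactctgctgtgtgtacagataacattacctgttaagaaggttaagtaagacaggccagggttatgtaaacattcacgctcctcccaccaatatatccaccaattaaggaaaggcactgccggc
Slc5a8, chr10:88885742-88885991, plus strand: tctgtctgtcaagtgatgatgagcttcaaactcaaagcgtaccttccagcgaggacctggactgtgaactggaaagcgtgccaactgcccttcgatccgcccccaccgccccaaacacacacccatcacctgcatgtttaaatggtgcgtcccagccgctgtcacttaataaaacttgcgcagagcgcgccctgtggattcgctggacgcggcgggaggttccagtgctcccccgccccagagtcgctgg
Slco1a1 held TTTATA 209 and 99 bases before its start and Kap held TATAAA 31 bases before it. On both strands, none of the 4 windows held CAAAGT (a part of the HNF4 site) or the longer CAAAGTCCA. These motifs occurred in 12.6% and 0.384% of 32851 mouse promoters of this length, and TATAAA in 12.4%. A missing match says only that these letters are not in the window.

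Without injury, Slc7a13 and Slco1a1 nuclei were 525 of 3508 GFP-positive nuclei, a share of 15.0% with an exact Clopper-Pearson 95% interval of 13.8% to 16.2%. After IRI the share was 3.95% at 64 h (119 of 3012), 0.312% at 96 h (10 of 3202) and 7.40% at 28 d (244 of 3299). In the GFP-negative library it was 1.44% (48 of 3338), and late segment nuclei were there more numerous, with 220. A rule that needs 3 UMIs finds fewer nuclei in shallow libraries, so each nucleus was also thinned to 500 UMIs. At that equal depth the share was 2.39% (1.91% to 2.96%) without injury. After IRI it was 0.271% (interval 0.117% to 0.533%) at 64 h, 0.304% (interval 0.0988% to 0.708%) at 96 h and 2.29% (interval 1.78% to 2.88%) at 28 d. In the GFP-negative library it was 0.495% (0.271% to 0.830%). Shallower barcodes left out numbered 0, 60, 1557, 281 and 511 in this order. At 500 UMIs the intervals at 28 d and without injury overlapped almost wholly. At 300 UMIs, where neither of these libraries lost a barcode, the share was 0.606% (0.371% to 0.935%) at 28 d and 0.969% (0.672% to 1.35%) without injury. The value at 28 d was thus the lower one at both depths, with overlapping intervals, and the gap was wider at 300 UMIs. The shares at 64 h and 96 h lay below that without injury at both depths. Fewer such nuclei and less of these transcripts per nucleus cannot be told apart by a rule on UMIs.

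**Figure D1:**
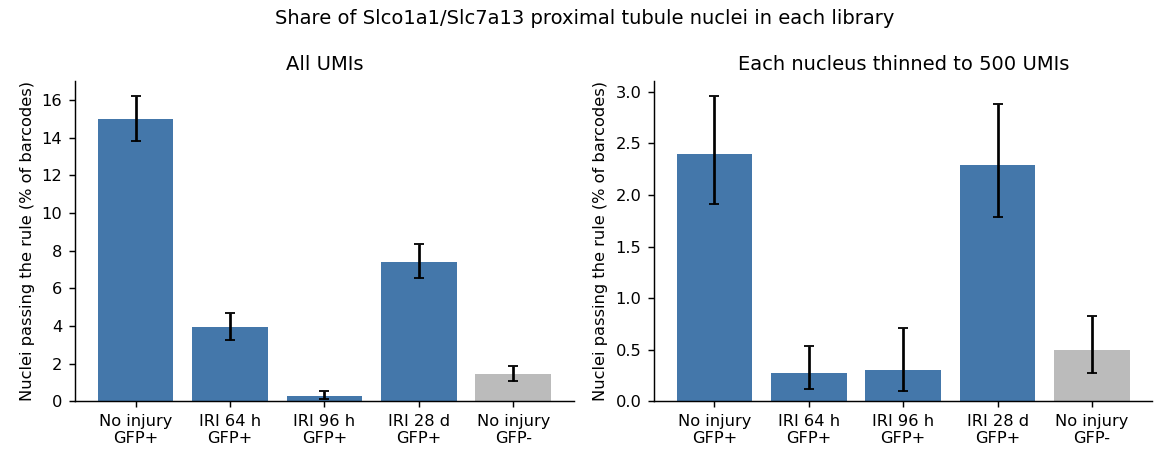
Share of nuclei that passed the Slc7a13 and Slco1a1 rule in each library, with exact 95% binomial intervals, from all UMIs (left) and after thinning each nucleus to 500 UMIs (right), on axes of different length. The bar at 28 d is lower than that without injury with all UMIs (7.40% and 15.0%) and of like height after thinning (2.29% and 2.39%).

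Among nuclei of the 3 proximal tubule types, these nuclei were 26.1% without injury and 11.9%, 5.88% and 18.9% at 64 h, 96 h and 28 d, and 12.3% in the GFP-negative library. Late segment nuclei numbered 227, 4, 6 and 142 in the GFP-positive libraries, so those at 64 h and 96 h were too few for any comparison with them. At the lower limit of the rule, 95 nuclei without injury held exactly 3 UMIs of the 2 genes and 124 more held 2 and were outside. The numbers were 46 inside and 93 outside at 64 h, 8 and 41 at 96 h, 81 and 124 at 28 d, and 5 and 10 in the GFP-negative library. The condition on late genes kept out 160 nuclei with at least 3 UMIs without injury, 0 at 64 h and at 96 h, and 69 at 28 d. It kept out 144 in the GFP-negative library, 3 times as many as passed there.

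Slc7a13 supplied most of the UMIs behind the rule. Without injury the 525 nuclei held 3377 UMIs of Slc7a13 (2233 CPM) and 253 of Slco1a1 (167 CPM), at 64 h 504 (1806 CPM) and 9 (32.3 CPM), at 96 h 33 and 0, and at 28 d 1056 (2666 CPM) and 153 (386 CPM). The GFP-negative nuclei held 377 (3004 CPM) and 30 (239 CPM). An Slco1a1 UMI was present in 144 nuclei without injury, in 5 at 64 h, in 0 at 96 h, in 81 at 28 d and in 15 of the GFP-negative library. Over whole libraries, Slc7a13 stood at 799 CPM without injury and 248, 162 and 616 CPM at 64 h, 96 h and 28 d, and Slco1a1 at 54.5, 4.67, 1.62 and 73.0 CPM. Over whole libraries both genes were thus lower at 64 h and at 96 h than in the other GFP-positive libraries.

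Slc7a13 did not by itself set these nuclei apart from the late segment. In late segment nuclei it stood at 2040 CPM without injury and 1968 CPM at 28 d, and 90.7% and 89.4% of those nuclei held it. In early segment nuclei it stood at 182, 86.5 and 181 CPM without injury, at 64 h and at 28 d. The rule thus chose nuclei with Slc7a13 and few late transcripts. Even so, 38.3% of them held a UMI of the 4 late genes without injury, 13.4% at 64 h, 27.9% at 28 d and 85.4% in the GFP-negative library. A UMI of the 4 early genes was present in 36.2%, 21.8%, 24.6% and 10.4%. A UMI of Slc7a13 was also present in 22.3% of thick ascending limb nuclei without injury and in 6.53%, 0.833% and 17.0% of those at 64 h, 96 h and 28 d, at median depths of 1318.5, 1075.5, 422.5 and 862.5 UMIs. Of those nuclei, 40 without injury, 1 at 64 h and 8 at 28 d passed the Slc7a13 and Slco1a1 rule too. They are included in these shares but were left out of the thick ascending limb levels and ratios given elsewhere.

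**Figure D2:**
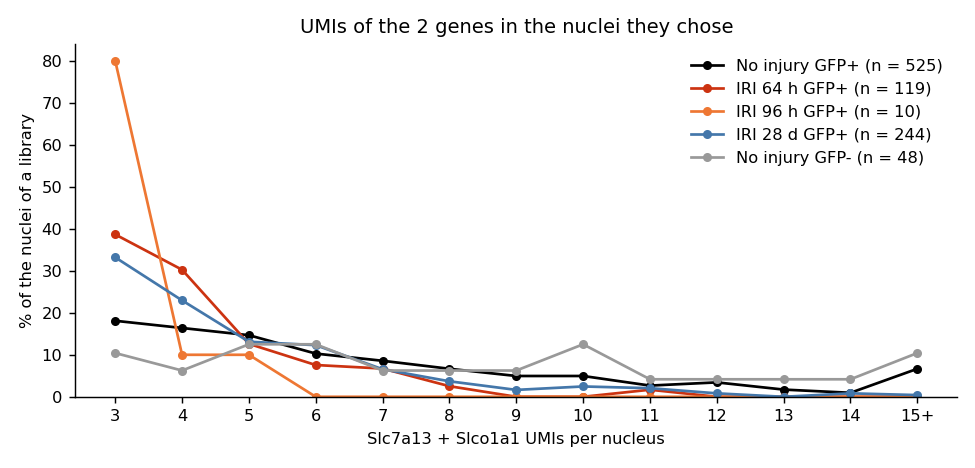
Percentage of the Slc7a13 and Slco1a1 nuclei of each library by the number of UMIs of the 2 genes they held, with 15 and more drawn as 1 point. Nuclei with the minimum of 3 were a larger share after IRI (46 of 119 at 64 h, 8 of 10 at 96 h, 81 of 244 at 28 d) than without injury (95 of 525).

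Nuclei with and without an Slco1a1 UMI differed in some male-biased transcripts. Of 14 such genes measured, 4 (Acsm3, Cyp2e1, Kap and Slc22a30) had counting intervals above 1 in both libraries, none had one below 1 in both, and 10 had neither. Kap, the androgen-regulated kidney protein of the proximal tubule, stood at 1966 CPM in the nuclei with an Slco1a1 UMI and at 1031 CPM in those without one in the library without injury, and at 1747 and 1219 CPM at 28 d. Acsm3, a mitochondrial acyl-CoA synthetase, stood at 417 and 255 CPM without injury and at 596 and 357 CPM at 28 d. Cyp2e1, a cytochrome P450, stood at 196 and 133 CPM without injury and at 222 and 123 CPM at 28 d. Slc7a8, a basolateral carrier of neutral amino acids, ran the other way, at 103 and 167 CPM without injury and at 20.8 and 119 CPM at 28 d. Of 245 genes looked at, these were among 11 besides Slco1a1 whose 95% Poisson intervals of the ratio left out 1 on the same side in both libraries. Slco1a1 chose these nuclei, so no test was run. Nuclei with more UMIs of Slco1a1 than of Slc7a13 numbered 17 without injury and 1, 0 and 16 at 64 h, 96 h and 28 d, too few for the comparison at a minimum of 20. With a minimum of 10, edgeR called 1 of 3701 genes between the Slc7a13-led and the Slco1a1-led nuclei (166 at an unadjusted p under 0.05). It was Slc8a1, the sodium calcium exchanger, named here after its value was seen, with a log2 fold change of 5.58 in the Slc7a13-led nuclei. Slc8a1 is also on the connecting tubule marker list. At least 2 UMIs of that list were held by 22 of the 525 nuclei without injury and by 9 of the 244 at 28 d. Whether these few nuclei made the call was not tested.

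Against early segment nuclei, Slc7a13 and Slco1a1 nuclei had higher levels of late segment and male-biased genes and lower levels of most other S1 genes. Both types were sorted by sums of early and late genes, so the S1 and S3 directions are partly built in. The edgeR quasi-likelihood test with Benjamini-Hochberg adjustment used UMI sums per type in 3 GFP-positive libraries (no injury, 64 h and 28 d), with the library as block. It called 465 of 9164 genes higher (5.07%) and 343 lower (3.74%), 8.82% in all, at an adjusted p under 0.05. The libraries differ in condition, so a call means a difference shared by them, and whether nuclei came from separate animals was not stated. Dropping the library without injury left 210 genes higher and 167 lower, and DESeq2 called 201 and 136 with all 3 libraries.

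Of 18 other S3 genes, 17 were tested, 11 were higher and none was lower, with a median log2 fold change of 1.20 against -0.02 over all genes tested. Slc5a8, a sodium-coupled carrier of lactate and other monocarboxylates, stood at 304, 308 and 250 CPM without injury, at 64 h and at 28 d in Slc7a13 and Slco1a1 nuclei. In early segment nuclei it stood at 55.2, 60.3 and 44.0 CPM. All values of these nuclei lay above all values of the early segment, and the log2 fold change was 2.40 ± 0.13 (SE, n = 3 libraries, edgeR adjusted p = 1.41e-10). Slc6a18, an apical carrier of neutral amino acids, stood at 574, 907 and 548 CPM against 198, 198 and 157 CPM, a log2 difference of 1.78 ± 0.12 (edgeR adjusted p = 4.02e-09). Slc5a1, the high-affinity sodium glucose carrier SGLT1 of the late segment, was at 51.6, 53.8 and 17.7 CPM against 11.9, 10.3 and 7.82 CPM. Its log2 fold change was 2.00 ± 0.28 (edgeR adjusted p = 4.84e-05). Fgf1, a fibroblast growth factor, Atp11a, a phospholipid flippase, and Ghr, the growth hormone receptor, were higher by 1.25, 1.20 and 0.86 on the log2 scale.

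Napsa, an aspartic protease of the proximal tubule, and Rnf24, a RING finger protein, were higher by 1.72 ± 0.18 and 1.62 ± 0.18, and Aadat, an aminotransferase of the kynurenine pathway, by 1.34 ± 0.13 (log2, SE). Acy3, an aminoacylase, was higher by 0.50 (edgeR adjusted p = 0.0103), a call that DESeq2 did not make (adjusted p = 0.157). The 6 S3 genes that did not pass included Acy1 at 0.47 and Slc16a9 at 0.08.

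The other S1 genes ran the opposite way, with 10 of 13 lower, 2 higher and a median of -0.83. Gatm, the first enzyme of creatine synthesis, stood at 138, 89.6 and 225 CPM without injury, at 64 h and at 28 d in Slc7a13 and Slco1a1 nuclei, against 1051, 682 and 996 CPM in early segment nuclei. The groups did not overlap, and the log2 fold change was -2.70 ± 0.14 (edgeR adjusted p = 5.99e-11). Slc6a19, the main apical carrier of neutral amino acids in the early tubule, was lower by 1.62 ± 0.12 on the log2 scale (167, 140 and 174 CPM against 485, 352 and 613 CPM). Slc7a7, a basolateral carrier of cationic amino acids, was lower by 1.55 ± 0.13, Prodh2, a hydroxyproline dehydrogenase, by 1.24 ± 0.16 and Slc7a8 by 1.22 ± 0.12. Slc2a2, the basolateral glucose carrier GLUT2, was lower by 0.83 ± 0.14. The exceptions were Slc5a10, a sugar carrier, higher by 0.94, and Slc22a12, the urate carrier URAT1, higher by 0.78. Of the 16 genes shared by the whole proximal tubule, 2 were higher, 4 lower and 10 did not pass, among them Lrp2 at 0.12 ± 0.08 and Cubn, the megalin partner, at -0.08 ± 0.09.

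**Figure D3:**
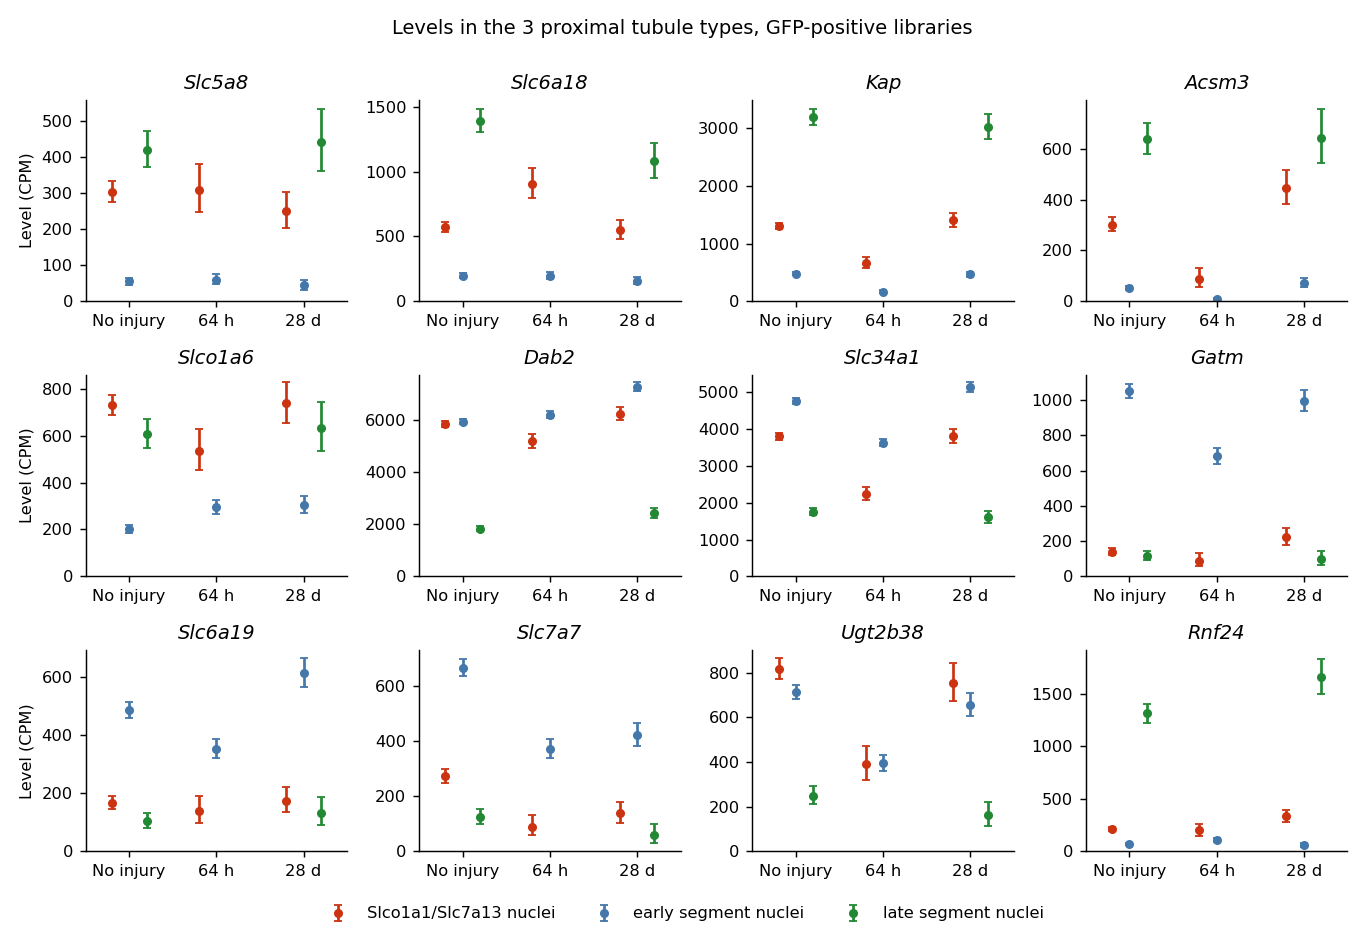
Levels in CPM of 12 named genes in Slc7a13 and Slco1a1 nuclei (red), early segment nuclei (blue) and late segment nuclei (green) of 3 GFP-positive libraries, with exact 95% Poisson intervals. Slc5a8, Slc6a18, Kap and Acsm3 lie between the early and late nuclei or near the late ones, whereas Dab2 and Slc34a1 lie nearer to the early ones, and Rnf24 lies far below the late ones (213 CPM against 1315 CPM without injury).

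Male-biased genes leaned upward against the early segment, with 9 of 14 tested higher, none lower and a median of 0.50. Acsm3 stood at 302, 89.6 and 444 CPM without injury, at 64 h and at 28 d, against 51.3, 7.14 and 72.3 CPM in early segment nuclei. Its log2 fold change was 2.62 ± 0.15 (edgeR adjusted p = 3.43e-10). The 64 h level of these nuclei, the lowest of the 3, still lay above every early segment level. Kap stood at 1303, 663 and 1411 CPM against 480, 170 and 465 CPM, a difference of 1.59 ± 0.10 on the log2 scale (edgeR adjusted p = 3.07e-09). Cyp4a12b, a fatty acid hydroxylase, was higher by 1.16 ± 0.20, Cyp2e1 by 0.96 ± 0.19 and Slc22a30, an organic anion carrier, by 0.84 ± 0.09. Esr1, the oestrogen receptor alpha gene, was among the 10 largest rises, with 88.6, 89.6 and 199 CPM against 13.8, 10.3 and 18.6 CPM and a log2 fold change of 2.96 ± 0.20 (edgeR adjusted p = 4.02e-09).

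Organic ion carriers, a list of 25 Slco, Slc22 and Abc genes, went both ways. Of 19 tested, 6 were higher and 4 lower. Of the 3 Slco genes among them, 2 were higher and none lower, of 12 Slc22 genes 4 were higher and 3 lower, and of 3 Abc genes 1 was lower. Slco1a6, the neighbouring paralogue of Slco1a1, stood at 729, 534 and 737 CPM against 202, 295 and 305 CPM, a log2 fold change of 1.35 ± 0.14 (edgeR adjusted p = 1.07e-06). Slco3a1, another organic anion polypeptide, was higher by 1.51 ± 0.16, Slc22a2, the cation carrier OCT2, by 0.95 ± 0.17 and Slc22a6, the anion carrier OAT1, by 0.70 ± 0.14. Slc22a8, which encodes OAT3, was lower in the fit by 0.85 on the log2 scale but in only 2 of the 3 libraries (30.4, 10.8 and 37.9 CPM against 46.3, 10.3 and 95.8 CPM), and 5 alternatives lost the call. Reads of close paralogues such as Slco1a1 and Slco1a6, the Slc22 and Ugt2b genes, or Slc7a12 and Slc7a13 could be split by the counting, so their values are uncertain.

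Amino acid carriers of several families also went both ways, with 5 of 17 higher and 6 lower. Of the 4 other Slc7 genes on this list, Slc7a12 was higher, and Slc7a7, Slc7a8 and Slc7a9 were lower. These lower Slc7 genes and Slc6a19 were also on the list of other S1 genes. Slc3a1, the partner of Slc7a13, was higher by 0.48 ± 0.13 (149, 186 and 106 CPM against 99.2, 136 and 79.2 CPM, edgeR adjusted p = 0.0231), a call that 5 alternatives lost. Slc7a9, the other carrier known to pair with the Slc3a1 product, was lower by 0.82 ± 0.16 (91.9, 140 and 114 CPM against 180, 145 and 230 CPM). Slc38a3, a basolateral glutamine carrier, was higher by 1.89 ± 0.24, and Slc16a10, a carrier of aromatic amino acids, lower by 1.57 ± 0.13.

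Peroxisomal and fatty acid genes were higher where called, with 6 of 17 higher and none lower. Ehhadh, the bifunctional enzyme of peroxisomal oxidation, was higher by 1.04 ± 0.16, Crot, the carnitine octanoyltransferase, by 1.10 ± 0.11, and Acot12, an acetyl-CoA hydrolase, by 0.86 ± 0.13. At 64 h Ehhadh nearly matched the early segment, at 100 CPM against 97.6 CPM, while without injury it stood at 473 CPM against 205 CPM. Among cytochrome P450 and conjugation genes 8 of 21 were higher and 1 lower, with Ugt3a1, a glycosyltransferase, at 0.96 ± 0.11. Of those higher, Acsm3, Cyp2e1, Cyp2j13, Cyp4a12b and Ugt2b37 were also on the male-biased list. Glycolysis (0 of 11) and ribosomal protein genes (0 of 14) had no call. In gluconeogenesis Pck1, which encodes its rate-limiting carboxykinase, was higher by 0.48 and G6pc, the glucose-6-phosphatase, lower by 0.70.

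Of 17 transcription factors tested, 3 were higher and 2 lower. Bcl6, a repressor, was higher by 0.88 ± 0.14 and Hnf4g by 0.46 ± 0.12, and Maf was lower by 0.90 ± 0.10 (546, 484 and 846 CPM against 875, 1104 and 1462 CPM). Hnf4a, the master regulator of the proximal tubule, did not pass at -0.33 ± 0.12. In the tubule injury list 1 of 12 was higher, Il34, a macrophage growth factor, at 1.08 ± 0.13, and 1 lower, Spp1, which encodes osteopontin, at -0.57 ± 0.14. The Spp1 call was lost without the 64 h library (-0.27, edgeR adjusted p = 0.310) and with DESeq2 (-0.53, DESeq2 adjusted p = 0.151). Cx3cr1, listed as a macrophage marker, was the only marker of another cell type called, and higher.

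Of all genes outside the lists, the largest rises and falls were strong in fold and mostly low in level. Mro, a gene of the maestro family, stood at 26.5, 89.6 and 80.8 CPM against 2.30, 3.17 and 4.89 CPM (4.02 ± 0.34 on the log2 scale), Glt1d1, a glycosyltransferase, was higher by 3.69 ± 0.25, Mep1b, a brush border meprin subunit, by 3.28 ± 0.32 and Ccl28, a chemokine, by 2.83 ± 0.19. Itpr2, a calcium channel of the endoplasmic reticulum, stood at 45.0, 39.4 and 53.0 CPM against 457, 422 and 563 CPM, lower by 3.41 ± 0.14 (edgeR adjusted p = 2.96e-12). Angpt1, the angiopoietin 1 gene, was lower by 3.55 ± 0.23.

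Against late segment nuclei, the picture turned, since Slc7a13 and Slco1a1 nuclei had more S1 and fewer S3 transcripts. This turn, too, partly follows from how the types were sorted. The edgeR test used 2 libraries (no injury and 28 d), and called 318 of 7138 genes higher (4.46%) and 267 lower (3.74%), 8.20% in all. Without TMM scaling it called 395 higher and 554 lower, so the balance of directions depends on the scaling, and DESeq2 called 72 and 67.

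Of the other S1 genes 7 of 12 were higher and 1 was lower, with a median of 0.95 against -0.01 over all genes tested. Slc2a2 stood at 136 CPM without injury and 53.0 CPM at 28 d, against 32.6 and 33.9 CPM in late segment nuclei (1.83 ± 0.31 on the log2 scale, n = 2 libraries, edgeR adjusted p = 0.00635). Slc7a8 was higher by 1.47 ± 0.24 and Slc7a7 by 1.24 ± 0.17. Of the 16 genes shared by the whole proximal tubule, 5 were higher, 10 did not pass and 1, the water channel gene Aqp1, was lower (162 and 149 CPM against 245 and 271 CPM), with a median of 0.22. Dab2, an adaptor of megalin endocytosis, stood at 5863 and 6263 CPM against 1836 and 2421 CPM, a difference of 1.60 ± 0.11 (edgeR adjusted p = 0.000109). Slc34a1 was higher by 1.24 ± 0.10, Slc4a4, the basolateral bicarbonate carrier, by 1.17 ± 0.11 and Slc13a3, a dicarboxylate carrier, by 1.46 ± 0.22. For Dab2 the values were close to those of the early segment, at 5945 and 7298 CPM.

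Of 16 other S3 genes tested, 11 were lower and 1, Cyp4b1, was higher, with a median of -0.80. Rnf24 stood at 213 and 333 CPM against 1315 and 1658 CPM, lower by 2.42 ± 0.12 (edgeR adjusted p = 1.78e-05), Napsa at 164 and 265 CPM against 801 and 670 CPM, and Fgf1 at 582 and 550 CPM against 1607 and 1616 CPM. Slc6a18 was lower by 1.08 ± 0.12 and Ghr by 0.91 ± 0.10, so both lay between the early and the late segment. Slc5a8 did not pass at -0.52 ± 0.14 (edgeR adjusted p = 0.0588), although 4 alternatives called it. Slc3a1 was lower by 0.82 ± 0.15, the opposite of its direction against the early segment.

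Male-biased genes were not graded as one group along the tubule, since 8 of 14 were higher than in late segment nuclei and 2 lower. Those higher were mainly P450 and glucuronosyltransferase genes. Ugt2b38 stood at 817 and 755 CPM against 250 and 161 CPM (1.96 ± 0.15 on the log2 scale, edgeR adjusted p = 0.000120), Ugt2b37 was higher by 2.30 ± 0.24 and Cyp2e1 by 2.25 ± 0.23. Kap, at 1303 and 1411 CPM against 3193 and 3023 CPM, was lower by 1.13 ± 0.10, and Acsm3, at 302 and 444 CPM against 638 and 645 CPM, by 0.78 ± 0.14. Slc22a30 did not pass at -0.12 ± 0.11.

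The list of peroxisomal and fatty acid genes split, with 5 of 17 higher and 3 lower. Ppara on it was also counted among the transcription factors. Ppara, the fatty acid receptor, was higher by 0.96 ± 0.13 and Ppargc1a, its coactivator, by 0.94 ± 0.15, while Acadm, a medium-chain dehydrogenase, was lower by 1.29 ± 0.14, Crot by 1.01 ± 0.13 and Ehhadh by 0.83 ± 0.12. Transcription factors were higher in 5 of 16, Maf the most at 1.39 ± 0.14, with Nr1h4, the bile acid receptor FXR, at 0.66 ± 0.12, and lower in none. Among the largest falls were Bcat1, a branched-chain aminotransferase, at -3.69 ± 0.27, and Slco4c1, an organic anion polypeptide, at -3.20 ± 0.47. Among the largest rises were Cftr, the chloride channel, at 2.45 ± 0.38, and Slc40a1, the iron exporter ferroportin, at 2.67 ± 0.47. Slco1a6, the paralogue of Slco1a1, did not pass at 0.32 ± 0.12, with 729 and 737 CPM against 605 and 632 CPM.

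**Figure D4:**
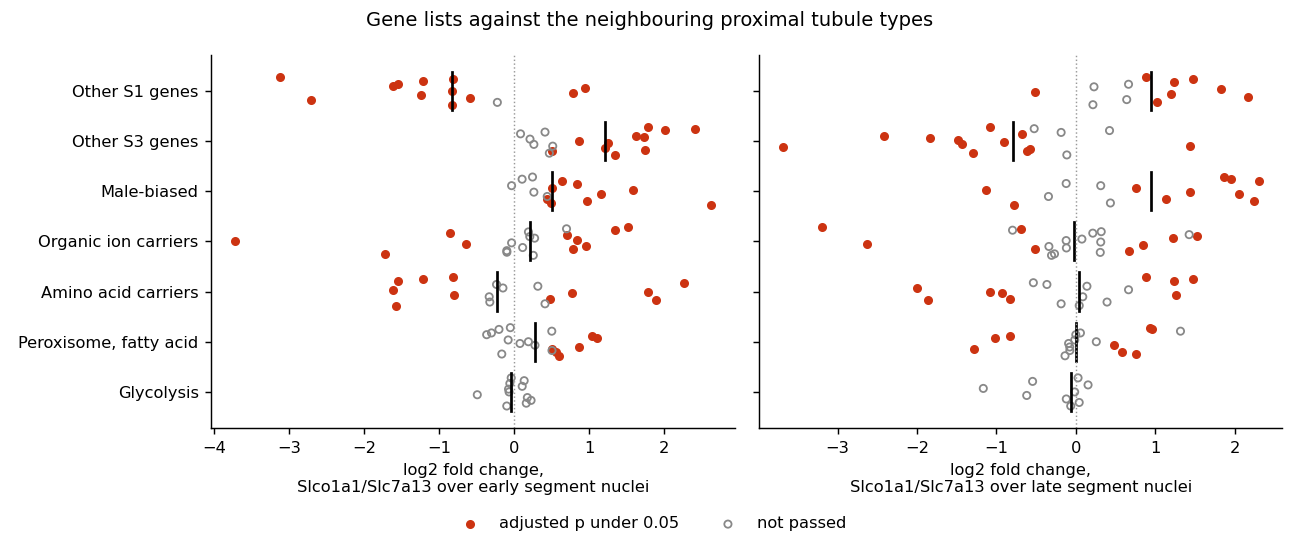
Log2 fold change of Slc7a13 and Slco1a1 nuclei over early segment nuclei (left, 3 libraries) and over late segment nuclei (right, 2 libraries) for genes of 7 lists, filled where the edgeR adjusted p is under 0.05, with the median as a bar. Other S1 genes have medians of -0.83 and 0.95 and other S3 genes 1.20 and -0.80, so both lists lie on opposite sides in the 2 panels. The types were sorted on early and late genes, so these sides partly follow from the rule.

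At 64 h after IRI, the 119 Slc7a13 and Slco1a1 nuclei held more transcripts of tubule injury, glycolysis and ribosomal protein genes and fewer of the male-biased genes than the 525 without injury. No test was possible with 1 library each. Of 8300 genes with at least 20 UMIs, 2146 (25.9%) were higher by 1.5-fold or more and 1666 (20.1%) lower, 45.9% in all, so a single gene past this fold is common. The median of all genes was 0.12 on the log2 scale. TMM scaling would lower every value by 0.29 and gave 1233 higher and 2433 lower, so the balance of directions depends on the scaling.

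Of 10 measured tubule injury genes, 9 were higher at 64 h and 1 was lower, with a median log2 ratio of 1.65. Clu, the clusterin gene, had 34 UMIs (122 CPM) at 64 h and 7 UMIs (4.63 CPM) without injury, a 26.3-fold ratio (11.5 to 70.4). Spp1 stood at 405 CPM against 95.9 CPM, 4.22-fold (3.27 to 5.44), and early segment nuclei had a larger ratio of 7.06 (6.21 to 8.06). Cryab, a small heat shock protein, was 5.42-fold higher (3.62 to 8.12), and Krt8, an epithelial keratin, 8.43-fold (3.40 to 22.1) on 14 and 9 UMIs. The rule asked for no Havcr1 or Vcam1 UMI, so nuclei most affected in those genes were left out. It kept out 5 nuclei without injury and 15, 3 and 11 nuclei at 64 h, 96 h and 28 d. Gdf15, a stress cytokine outside the lists, was 13.3-fold higher (6.81 to 27.7).

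All but 2 of the 14 ribosomal protein genes were past 1.5-fold at 64 h, all upward, with a median of 1.27. Rplp1 stood at 538 CPM against 133 CPM, 4.04-fold (3.25 to 5.02), and Rplp0 at 287 CPM against 93.9 CPM. The mitochondrial share of UMIs in these nuclei was 0.107% at 64 h and 0.0684% without injury, and its part in the ribosomal difference was not tested. Of 10 glycolysis genes 7 were higher and 1 lower. Tpi1, triosephosphate isomerase, stood at 197 CPM against 71.4 CPM, 2.76-fold (1.96 to 3.85), and Gpi1, glucose-6-phosphate isomerase, was 2.38-fold higher (1.62 to 3.44). The lower one was Hk1, with 0 UMIs against 22. Set against 3 counts of the 64 h sum it was at least 1.35-fold lower, short of 1.5-fold, so its place among the lower genes rests on a count of 0. In gluconeogenesis Pck1 stood at 229 CPM against 469 CPM, a ratio of 0.489 (0.373 to 0.632). Pcx, pyruvate carboxylase, had a ratio of 0.517 (0.358 to 0.725).

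None of 14 male-biased genes was higher past the fold and 6 were lower. Acsm3 stood at 89.6 CPM at 64 h against 302 CPM without injury, a ratio of 0.296 (0.190 to 0.443), and Kap at 663 CPM against 1303 CPM, a ratio of 0.509 (0.435 to 0.592). Early segment nuclei had ratios of 0.139 and 0.354 for the same genes, and thick ascending limb nuclei 0.0867 and 0.318. Ugt2b38 had a ratio of 0.478 (0.389 to 0.582) and Slc22a30 of 0.556 (0.468 to 0.656). The whole P450 and conjugation list, which shares genes with the male-biased list, had 3 higher and 7 lower of 21.

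Other carriers and enzymes went in both directions. Abcc2, the apical export pump MRP2, stood at 1792 CPM against 347 CPM, 5.16-fold higher (4.56 to 5.84). Slc7a12, a carrier close in sequence to Slc7a13 and known as female-biased in mouse kidney, had 41 UMIs (147 CPM) against 10 (6.61 CPM), a 22.2-fold ratio (10.9 to 49.7), against 1.81-fold (0.819 to 3.96) in early segment nuclei. Over whole libraries it stood at 8.67 CPM without injury and 45.8, 52.3 and 49.4 CPM at 64 h, 96 h and 28 d. Gpc3, a glypican, was 10.3-fold higher (7.65 to 14.0) in these nuclei and 2.42-fold (2.02 to 2.89) in early segment nuclei. Slc6a18 was 1.58-fold higher (1.37 to 1.82), and Slc7a7 had a ratio of 0.328 (0.210 to 0.491) and Prodh2 of 0.193 (0.0915 to 0.360).

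Of the peroxisomal and fatty acid genes, Ehhadh stood at 100 CPM at 64 h against 473 CPM without injury, a ratio of 0.212 (0.140 to 0.309). Acot12 had a ratio of 0.340 (0.213 to 0.518). Crot, at 480 CPM against 254 CPM, and Hsd17b4, another bifunctional enzyme of peroxisomes, at 380 CPM against 175 CPM, were higher. Of the transcription factors, Hnf4g had a ratio of 0.389 (0.271 to 0.543) and Bcl6 of 2.03 (1.61 to 2.55). Among genes shared by the proximal tubule, Keg1, a glycine acyltransferase-like gene of the kidney, stood at 2283 CPM against 8324 CPM, a ratio of 0.274 (0.253 to 0.297), and its ratio in early segment nuclei was 0.239. The Keg1 ratio in thick ascending limb nuclei was 0.0969 (0.0802 to 0.116), on 124 and 2247 UMIs. Slc34a1 had a ratio of 0.591 (0.543 to 0.642).

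Markers of other cell types also differed at 64 h. Of 10 lists, 7 had a summed ratio with its interval below 1, 1 had it above 1 and 2 had intervals that held 1. The endothelium list was the higher one, at 1.58 (1.03 to 2.36). The connecting tubule list had a summed ratio of 0.120 (0.0751 to 0.183), on 22 UMIs against 990, of which Slc8a1 had 7 and 899. At least 2 UMIs of this list were held by 3 of 119 nuclei at 64 h and by 22 of 525 without injury. Many of the UMIs without injury thus came from few nuclei, so the interval, which takes UMIs as independent, is too narrow. The thick ascending limb list had a ratio of 0.715 (0.603 to 0.842) and the macrophage list of 0.358 (0.140 to 0.763). Their part in the other differences was not tested. Leaving out nuclei with defining markers of another type left the tubule injury list at 6 higher and 1 lower of 8, the male-biased list at 0 and 7 of 14 and the ribosomal list at 10 and 0 of 13. The defining markers did not include Slc8a1, so nuclei rich in it could stay. After TMM scaling these 3 lists had 7 and 1 of 10, 0 and 9 of 14, and 9 and 0 of 14. The glycolysis list had 8 and 0 of 8 after that removal, but only 4 and 1 of 10 after TMM scaling, against 7 and 1 before it.

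**Figure D5:**
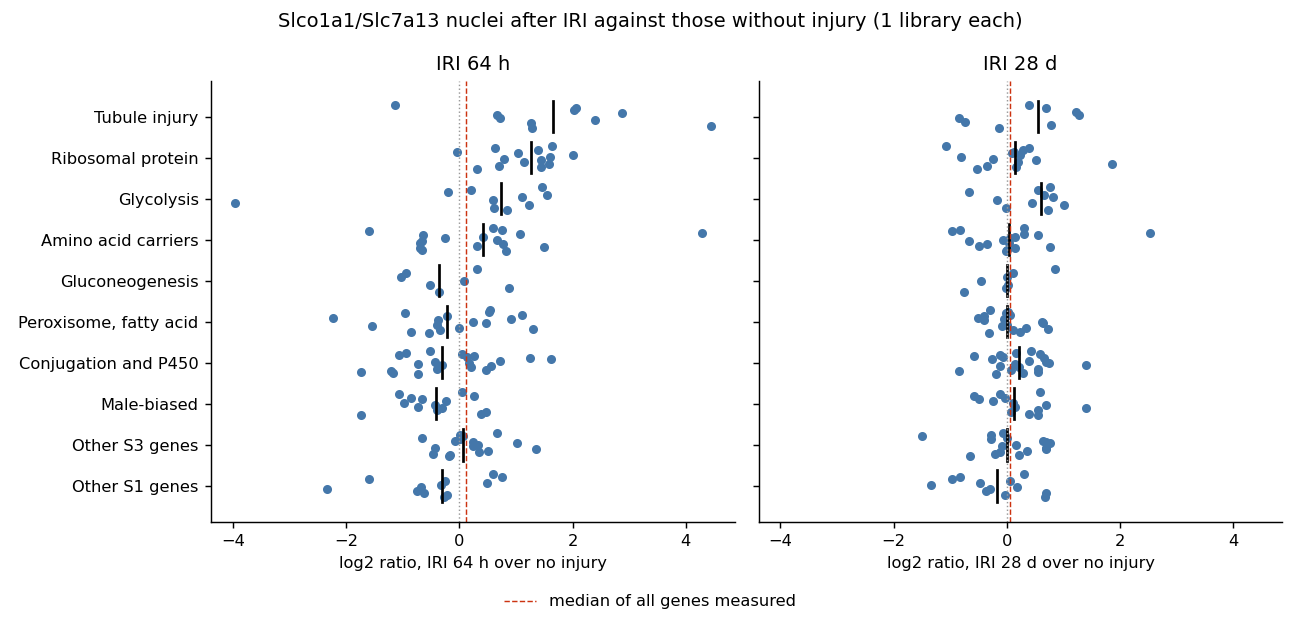
Log2 ratio of Slc7a13 and Slco1a1 nuclei 64 h (left) and 28 d (right) after IRI over those without injury, 1 library each, for genes of 10 lists with at least 20 UMIs; bars are list medians and the dashed line is the median of all genes measured. At 64 h tubule injury (1.65) and ribosomal protein genes (1.27) have the highest medians, and at 28 d glycolysis (0.60) and tubule injury genes (0.54).

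At 28 d, with 244 nuclei, fewer genes lay past 1.5-fold from the level without injury than at 64 h. Of 8491 genes, 1506 (17.7%) were past 1.5-fold upward and 1179 (13.9%) downward, 31.6% in all, with a median over all genes of 0.07 on the log2 scale. The 28 d sum held 396147 UMIs and the 64 h sum 279046, and smaller sums put more genes past the fold by counting error alone. Between the 2 sorts without injury, 49.6% were past it. Among genes with at least 50 UMIs it was 22.8% at 28 d and 39.7% at 64 h. TMM scaling would lower every value by 0.16 and gave 1022 higher and 1608 lower. Kap stood at 1411 CPM against 1303 CPM without injury, a ratio of 1.08 (0.984 to 1.19), and Acsm3 at 444 CPM against 302 CPM, 1.47-fold higher (1.23 to 1.75). Among the male-biased genes 3 of 14 were past the fold, all higher, with Cyp4a12a at 131 CPM against 48.9 CPM, 2.68-fold (1.84 to 3.88), and Cyp4b1 at 949 CPM against 586 CPM, 1.62-fold (1.43 to 1.83). After TMM scaling this list had 1 higher and 2 lower, so its direction is not settled. Of the 10 lists of other cell types, 3 had summed ratios with intervals above 1 and 5 below 1. They were higher for endothelium at 1.84 (1.30 to 2.58), macrophages at 1.80 (1.26 to 2.54) and the connecting tubule at 1.18 (1.04 to 1.35). For the connecting tubule list, 9 of 244 nuclei held at least 2 UMIs, against 22 of 525 without injury, so its interval is too narrow here too. Among the lower ones were the thin limb at 0.205 (0.0651 to 0.496) and intercalated cells at 0.397 (0.221 to 0.665). Their part in the other differences was not tested.

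Tubule injury genes at 28 d numbered 4 higher and 2 lower of 8, and glycolysis genes 5 higher and 1 lower of 10. After TMM scaling the numbers were 3 and 2 for tubule injury and 3 and 1 for glycolysis. Il34 stood at 293 CPM against 121 CPM, 2.42-fold (1.90 to 3.07), and was 2.65-fold higher in early segment nuclei too. Spp1 was 1.63-fold higher (1.19 to 2.21) and Gpi1 2.03-fold (1.42 to 2.86). Ribosomal protein genes had 1 higher and 2 lower of 14. Of genes that were far from the level without injury at 64 h, Abcc2 was 1.62-fold higher at 28 d (1.38 to 1.90), Ehhadh had a ratio of 0.704 (0.580 to 0.848), Hnf4g of 0.984 (0.807 to 1.19) and Pck1 of 1.00 (0.848 to 1.18).

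Several differences from the nuclei without injury were seen at both times. Mid1, a ubiquitin ligase gene that spans the pseudoautosomal boundary of the mouse X chromosome, had 125 UMIs without injury (82.7 CPM), 580 at 64 h (2079 CPM) and 580 at 28 d (1464 CPM). Its ratio was 25.1 (20.7 to 30.8) at 64 h and 17.7 (14.6 to 21.7) at 28 d. The rise was shared by other cells, with ratios at 64 h of 12.2 in early segment and 16.4 in thick ascending limb nuclei, and whole libraries stood at 167 CPM without injury and 3003, 130 and 1737 CPM at 64 h, 96 h and 28 d. Slc7a12 was 6.49-fold higher at 28 d (2.81 to 15.9) and Gpc3 3.71-fold (2.62 to 5.25). Slc7a7 stayed lower at 28 d with a ratio of 0.508 (0.376 to 0.675), as did Slc16a14, a monocarboxylate carrier family gene, with 0.278 (0.174 to 0.424) against 0.0858 (0.0277 to 0.202) at 64 h. Both IRI libraries share the library without injury as their denominator.

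Other genes were named for their ratio at 28 d, and some were past the fold at 64 h too. Gabrb1, a GABA receptor subunit, stood at 109 CPM against 21.8 CPM (4.97-fold, 3.09 to 8.08), and its ratio at 64 h was 2.79 (1.46 to 5.16). Kmo, kynurenine monooxygenase, had a ratio of 0.207 (0.0930 to 0.402) and one of 0.196 (0.0709 to 0.435) at 64 h. Gadd45g, a stress response gene, had 0.374 (0.291 to 0.475) and 0.255 (0.177 to 0.356) at 64 h. For the next 5 genes, the intervals at 64 h held 1. Maf was 1.55-fold higher at 28 d (1.36 to 1.76), with a 64 h ratio of 0.887. Slc2a2 stood at 53.0 CPM at 28 d against 136 CPM, a ratio of 0.391 (0.237 to 0.614), with a 64 h ratio of 0.793. Of the S3 genes, Rnf24 and Napsa were 1.56-fold and 1.62-fold higher at 28 d, with 64 h ratios of 0.943 and 1.18. Aadat had a ratio of 0.633 (0.520 to 0.765) at 28 d and of 0.877 at 64 h. Whether the genes named here differed between 28 d and 64 h was not tested.

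The 10 nuclei at 96 h held 10578 UMIs in all, so a count of 0 there allows up to 284 CPM, and no ratio was taken. Their 33 UMIs of Slc7a13 and 0 of Slco1a1 are the values that chose them.

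In the GFP-positive library without injury, the 525 nuclei carried fewer S3 and more S1 transcripts than the 48 of the GFP-negative library. Of 8003 genes, 2086 (26.1%) were at least 1.5-fold higher in the GFP-positive nuclei and 1882 (23.5%) lower, 49.6% in all. TMM scaling would raise every value by 0.29 and gave 2924 higher and 1146 lower. Of 17 other S3 genes, 3 were higher and 11 lower, with a median of -1.04, and of 12 other S1 genes 7 were higher and 1 lower, with a median of 0.85. Rnf24 stood at 213 CPM in GFP-positive nuclei and 693 CPM in GFP-negative nuclei, a ratio of 0.307 (0.242 to 0.394), Napsa at 164 and 805 CPM, and Kap at 1303 and 2845 CPM. Dab2 was higher, at 5863 and 2319 CPM. These differences ran beside the share of nuclei with a late UMI, 38.3% and 85.4%. Of the 10 lists of other cell types, 3 had summed ratios with intervals above 1, which were the connecting tubule at 9.13 (lower bound 4.79, on 990 and 9 UMIs), intercalated cells at 6.39 (1.74 to 53.2) and the thick ascending limb at 2.18 (1.63 to 2.99). Those of endothelium at 0.415 (0.261 to 0.689), macrophages at 0.366 (0.234 to 0.597) and principal cells at 0.552 (0.330 to 0.980) were below 1. At least 2 UMIs of the connecting tubule list were held by 22 of 525 and 0 of 48 nuclei, so its interval is too narrow. The part of these lists in the differences was not tested.

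Ugt2b37 differed most, with 1133 UMIs (749 CPM) in GFP-positive nuclei and 1 UMI (7.97 CPM) in GFP-negative nuclei, a ratio of 94.0 (16.8 to 3716). It was lower throughout the GFP-negative library, with ratios of 12.3 (5.96 to 30.7) in early segment nuclei and, over all nuclei, 458 CPM and 16.6 CPM. Late segment nuclei had 116 CPM in the GFP-positive and 10.6 CPM in the GFP-negative library. Bcat1 was lower in GFP-positive nuclei, at 10.6 CPM, than in GFP-negative nuclei, at 143 CPM. Late segment nuclei of the GFP-positive library without injury had 172 CPM, so only the GFP-positive value lay far below them.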

How the data were processed

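The authors deposited 1 matrix of UMI counts per library (10x Genomics 3' chemistry, nuclei sorted for DAPI and then GFP, per the labels' protocols). The submitters' processing notes name bcl2fastq 2.17, STAR 2.5.1b, Cell Ranger 2.1, mm10 and a pre-mRNA reference, which counts intronic reads. The authors' barcode filter and cell type calls were not used here. The Slc7a13 and Slco1a1 nuclei, gene lists and tests were chosen with earlier results of these data known.

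Barcodes with at least 200 genes were kept, and 0 of those below held 3 UMIs of the 2 genes. UMI counts were summed per library and type. Segment comparisons used edgeR 4.0.16 (R 4.3.3; filterByExpr, TMM, quasi-likelihood test, library as block, libraries with at least 20 nuclei of each type), with p-values adjusted over all genes, and SE as the absolute log2 fold change divided by the square root of F, an approximation. DESeq2 1.42.0 was an alternative. Condition ratios compare CPM with exact conditional Poisson intervals, called at 1.5-fold among genes with at least 20 UMIs, and a log2 pseudocount of 1 CPM. Intervals (95%) hold counting error alone, as there was 1 library per group. Named genes were list genes with at least 20 UMIs, the 10 largest called changes each way shared by all libraries, and, for ratios, the 10 each way with the interval bound farthest from 1, from which the text chose by role. Gene positions came from GENCODE M21 (285 of 286 looked up were matched) and promoters from RefSeq. Scripts were tested on simulated data. Other settings were tried and are described at the end. Some genes and motifs are not reported here.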

Additional observations from a re-analysis of the deposited data

Results flagged for a closer look

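Gene lists whose summed level lay on opposite sides of the level without injury at 64 h and at 28 d, with both counting intervals clear of 1, are given here. The difference between the times was not tested, since each had 1 library, and both ratios share the library without injury. The male-biased list had a summed ratio of 0.685 (0.647 to 0.725) at 64 h and 1.05 (1.00 to 1.09) at 28 d. The P450 and conjugation list had 0.746 (0.710 to 0.783) and 1.15 (1.11 to 1.19). It shares genes with the male-biased list, such as Cyp2e1, Cyp4b1 and Ugt2b37, so these are not separate results. For organic ion carriers the ratios were 1.05 (1.00 to 1.10) and 0.954 (0.913 to 0.996). Among markers of other cell types, the connecting tubule list had 0.120 (0.0751 to 0.183) and 1.18 (1.04 to 1.35), with Slc8a1 holding 899 of the 990 UMIs without injury, and the macrophage list 0.358 (0.140 to 0.763) and 1.80 (1.26 to 2.54), on 106 UMIs without injury, 7 at 64 h and 50 at 28 d. At least 2 UMIs of the connecting tubule list were held by 22 of 525 nuclei without injury, 3 of 119 at 64 h and 9 of 244 at 28 d. Its intervals are therefore too narrow. After TMM scaling, which lowers every value by 0.29 (log2) at 64 h and 0.16 at 28 d, the organic ion ratio was 0.860 and 0.856 and the male-biased ratio 0.560 and 0.938, so neither list lay on opposite sides. The P450 ratio at 28 d was then 1.03 (0.994 to 1.07) and that of the connecting tubule 1.06 (0.931 to 1.21), with intervals that held 1.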

How the results depend on the processing

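No paired analysis was possible because each group had 1 library; within the segment tests, the library was the block.

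The share of Slc7a13 and Slco1a1 nuclei moved with the rule. When 2 UMIs sufficed it was 18.5% without injury and 7.04%, 1.59% and 11.2% at 64 h, 96 h and 28 d. When 5 were needed it was 9.81%, 1.23%, 0.0312% and 3.24% in the same order. With 400 genes per nucleus the shares at 96 h and 28 d were 0.585% and 8.40%. Among nuclei of the 3 proximal tubule types they were 26.1%, 11.9%, 5.88% and 18.9%, and 12.3% in the GFP-negative library. Thinned to 300 UMIs they were 0.969%, 0.0332%, 0.0340% and 0.606%, so at that depth the value at 28 d lay below that without injury, with overlapping intervals (0.371% to 0.935% and 0.672% to 1.35%). In each of these settings the shares at 64 h and 96 h stayed below that without injury.

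Against early segment nuclei, DESeq2 called 201 genes higher and 136 lower. Thinning to 500 UMIs left 264 and 205, with fewer genes tested. Leaving out 1 library gave 210 to 580 higher and 167 to 436 lower, fewest without the library without injury. Against late segment nuclei DESeq2 called 72 and 67 and thinning left 139 and 147. Totals alone as scaling gave 554 lower. With 1 of its 2 libraries left out, no spread between libraries remained and no test was run. The differences between edgeR and DESeq2 were not traced, and the cause was not tested.

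At 64 h TMM scaling gave 1233 genes higher past 1.5-fold. At least 50 UMIs gave 1291 higher and 790 lower, leaving out nuclei with any markers of another type 1421 and 868, and thinning 864 and 585. At 28 d these 3 settings gave 750 and 490, 979 and 674, and 601 and 512. GFP-positive against GFP-negative nuclei, they gave 1128 and 854, 1346 and 828, and 944 and 539, and TMM gave 1146 lower. All 3 settings measure fewer genes by construction.

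Of 656 gene values against the early segment, 616 kept direction and side of the threshold, 35 lost the call, 4 gained it and 1 turned, Cubn at 0.0104 without the 28 d library. Of 316 against the late segment, 278 kept both, 32 lost the call, 4 gained it and 2 turned, Slc22a30 at 0.11 with the GFP-negative library and Aadat at 0.15 with DESeq2; none of the 3 passed in those fits. Of 359 gene ratios at 64 h, 297 at 28 d and 102 between the sorts, 308, 275 and 90 stayed within their counting interval. No ratio past 1.5-fold in the main setting turned, and ratios nearer 1 were not scored for a turn. List medians were likewise scored only where past 1.5-fold. The male-biased median at 28 d, nearer 1, went from 0.13 to -0.03 (log2) after TMM scaling. The median of the female-biased list at 28 d turned to -0.17 without nuclei holding markers of another type, -0.0624 after thinning and -0.13 with 5 UMIs needed. That of the tubule injury list between the sorts turned to -0.23 without nuclei holding markers of another type. The cause was not tested.

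A milder removal, with 6 markers that proximal tubule nuclei at large carried set aside, was chosen after seeing the data. No library held 20 nuclei led by each of the 2 genes, so the comparison of Slc7a13-led with Slco1a1-led nuclei was run with at least 10, and its other settings were not run. Depth limits the 96 h library most, with 10 nuclei.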
